A study of Mus musculus with 2 samples.

Results

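The nuclear genes of oxidative phosphorylation were followed in 2 lines of immortal mouse embryonic fibroblasts, with RNA levels resolved by allele. Members were taken by symbol (Nduf, Sdha to Sdhd, Uqcr, Cox4 to Cox8 and Atp5), which gave 92 of the 22711 genes listed in both libraries. Both lines are hybrids of the mouse strains C57BL/6N (B6) and PWK/PhJ (PWK). PWK-Xi, labelled C57BL/6N X PWK/PhJ, carries its inactive X chromosome (Xi) on the PWK copy, and B6-Xi, labelled PWK/PhJ X C57BL/6N, on the B6 copy. Each line gave 1 Smart-seq2 library of polyadenylated RNA, a full-length cDNA protocol made for small inputs. Both were grown in DMEM with newborn calf serum and carry no other allele or treatment in the labels. The sources used here do not say how the cells were made immortal or whether a line is 1 clone. With 1 library per line there was no replicate, so every value below describes a single library and no test or p-value was possible.

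Oxidative phosphorylation passes electrons along complexes of the inner mitochondrial membrane. Complex I takes them from NADH and complex II from succinate, complex III hands them on to cytochrome c, and complex IV reduces oxygen. Complexes I, III and IV pump protons, and complex V, the ATP synthase, uses the proton gradient to make ATP. Most subunits are encoded in the nucleus and a few in mitochondrial DNA, so each complex except complex II is assembled from products of both genomes. In mouse they lie scattered over the autosomes and the X, and here the 92 members lay on 19 chromosomes, with 3 of them on the X.

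Levels are FPKM, a measure relative to gene length and to the size of the library, summed over the B6 and the PWK allele. The B6 share is the B6 FPKM as a percentage of that sum. The summed FPKM of all genes was 256196 in PWK-Xi and 285397 in B6-Xi, and 12907 and 10127 genes were above 0. Of 11 fibroblast markers, 9 had at least 5 FPKM in a line and were above 0 in both, at a sum over the whole list of 2979 FPKM in PWK-Xi and 13332 FPKM in B6-Xi, most of it S100a4. Without S100a4 the other 10 summed to 658 FPKM in PWK-Xi and 326 FPKM in B6-Xi, and most of the PWK-Xi sum was Dcn. The order of the lines in these sums was thus set by S100a4 and Dcn. Dcn (456 and 79.1 FPKM), Pdgfra (28.2 and 7.13 FPKM) and Pdgfrb (21.4 and 10.2 FPKM) were 2-fold or more higher in PWK-Xi. S100a4 (2321 and 13006 FPKM) and Col3a1 (2.21 and 6.04 FPKM) were 2-fold or more lower. Col1a1 (35.5 and 54.6 FPKM), Col1a2 (69.2 and 134 FPKM) and Thy1 (5.05 and 10.1 FPKM) were lower by less. Fn1 (32.7 and 24.3 FPKM) was higher by less. Vim was listed at 0 in both lines and Lum at 0 in B6-Xi. The 4 skeletal muscle markers were at 0 in both lines, the 3 immune markers summed to 3.30 FPKM in PWK-Xi and 1.39 FPKM in B6-Xi, the 4 epithelial markers to 1.03 and 0 FPKM, and the 4 heart muscle markers to 0.505 FPKM in PWK-Xi and 0 in B6-Xi. The 3 embryonic stem cell markers were seen in PWK-Xi alone, with 15.1 FPKM of Pou5f1, 2.19 FPKM of Sox2 and 0.360 FPKM of Nanog, all from the B6 allele, and were listed at 0 in B6-Xi. The part of these differences in the results below was not tested. In such bulk RNA, fewer cells of a type and less RNA per cell cannot be told apart.

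Of the 92 members, 69 were above 0 in both lines, 5 were at 0 in 1 line only and 18 (19.6%) were listed at 0 in both, against 42.2% of all genes. Most of these 18 are subunits that respiring cells use, so a 0 here does not show a silent gene. In complex I they were Ndufa9, Ndufab1, Ndufb6, Ndufb7 and Ndufb10, among the assembly factors Ndufaf1 and Ndufaf7, and in complex II Sdhd, a membrane anchor. In complex III they were Uqcrc2, a core protein, Uqcrh and Uqcr11. Complex V lacked values for Atp5k and Atp5l, and complex IV for Cox6b1 and Cox8a, both ubiquitous, and for the tissue isoforms Cox7a1, Cox8b and Cox8c. The core of complex I was the only class of structural subunits with every member above 0 in both lines (7 of 7).

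The members held 5.87% of all summed FPKM in PWK-Xi and 4.93% in B6-Xi. Without Cox4i1, the most abundant member, these shares were 5.17% and 4.59%. Levels followed a similar order by complex in both lines. Among members with 5 FPKM or more in each line, the core subunits of complex I, which carry the flavin and the iron-sulphur clusters, had the lowest median of the structural classes, at 53.2 FPKM in PWK-Xi and 68.5 FPKM in B6-Xi (7 genes). The accessory subunits of complex I, which surround that core, had medians of 162.9 and 187.8 FPKM (24 genes), and the 3 genes of complex II 119.96 and 108.9 FPKM. Complex III had 289.2 and 346.6 FPKM (5 genes), complex IV 357.0 and 323.0 FPKM (10 genes) and complex V 280.9 and 247.4 FPKM (12 genes). Complex IV thus stood above complex III in PWK-Xi and below it in B6-Xi. Assembly factors, which help to build the complexes and are not part of them, lay far lower, and the 7 of 9 that were above 0 had medians of 6.20 FPKM in PWK-Xi and 4.93 FPKM in B6-Xi. Across the 64 members with 5 FPKM or more in each line, log2 levels in the 2 libraries had a Pearson correlation of 0.94, against 0.90 over 3960 genes with the same minimum. This is a description across genes of the same 2 libraries.

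**Figure D1:**
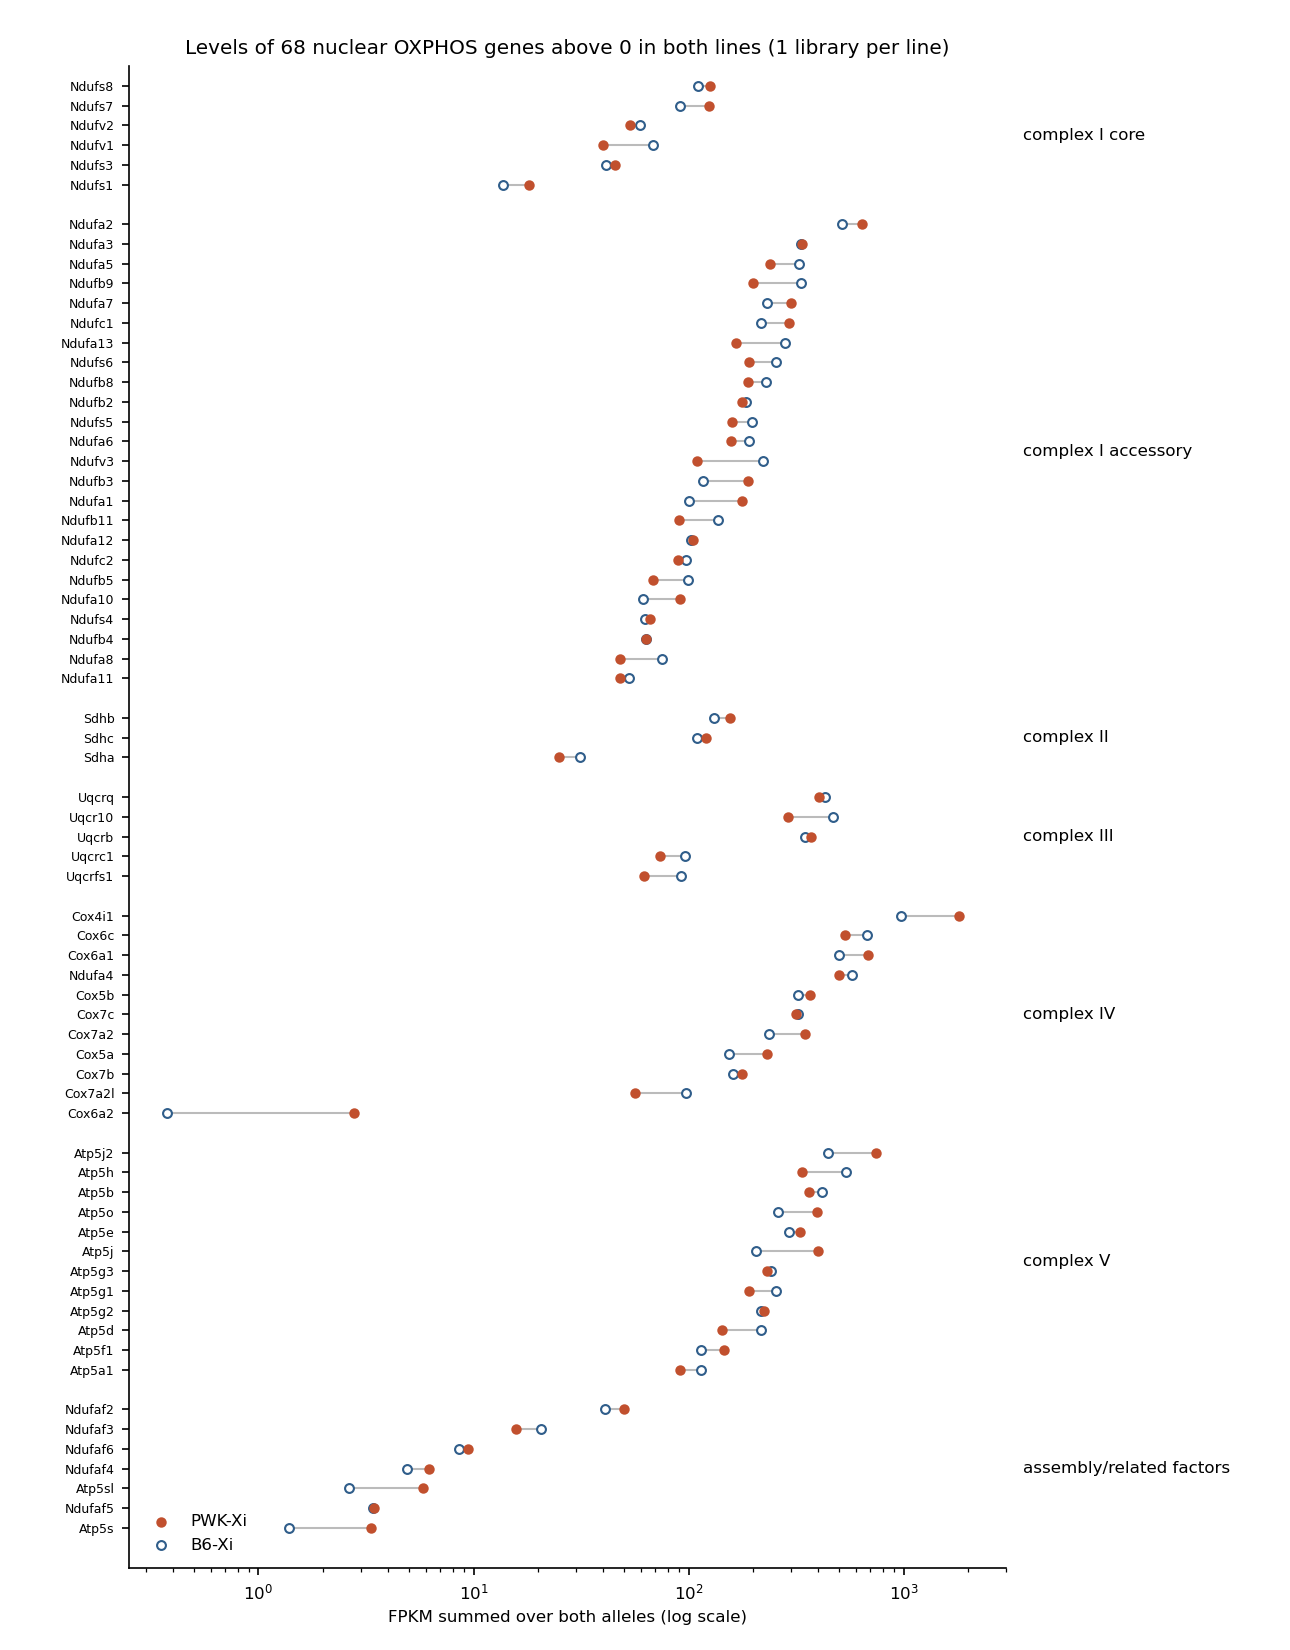
FPKM summed over both alleles on a log axis for 68 of the 69 members above 0 in both lines, by complex, with filled points for PWK-Xi, open points for B6-Xi and a line joining them. Most pairs lie close together, and 5 of the 7 assembly and related factors lie under 10 FPKM in both lines.

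The lines, with the Xi on different parental copies, were compared gene by gene, and their levels lay close. Differences are log2((PWK-Xi + 1)/(B6-Xi + 1)) of FPKM, a scale on which the change of low genes is understated. They were taken for genes that reached 5 FPKM in PWK-Xi or B6-Xi. Of the 66 members that passed and were above 0 in PWK-Xi and B6-Xi alike, 0 were 2-fold or more higher in PWK-Xi, against 14.1% of all 5241 such genes, and 1, Ndufv3, was 2-fold or more lower, against 5.95%. A further 3 members passed through PWK-Xi alone, because Atp5c1, Cox6b2 and Ndufa4l2 were listed at 0 in B6-Xi. With them 3 of 69 members were 2-fold higher (17.8% of 5490 genes) and 1 was lower (5.83%). Higher minimum levels left the same picture. At 20 FPKM or more in each line, 1 of 61 members (1.64%) and 11.2% of 1338 genes differed 2-fold either way, with 0 members and 5.75% of genes higher in PWK-Xi and 1 member and 5.46% lower. At 100 FPKM, 1 of 42 members (2.38%) and 13.5% of 297 genes differed, with 0 members and 4.38% of genes higher in PWK-Xi and 1 member and 9.09% lower. The typical difference was less far apart, since at 20 FPKM the median size of the log2 difference was 0.34 for members and 0.38 for all genes.

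The median log2 difference of all 5241 genes was 0.19, and that of the 66 members -0.02 (0.02 with the 3 at 0 in B6-Xi). With the total FPKM of the lines made equal the median of the 69 members was 0.18, and with differences centred on the median of all genes it was -0.17, so no direction holds for the members as a whole. By complex the medians were -0.38 for complex III (5 genes), -0.13 for the accessory subunits of complex I (24 genes), 0.14 for its core (7 genes) and 0.14 for complex II (3 genes). For complex IV the median was 0.16 over 10 genes above 0 in both lines, for complex V -0.0034 over 12, and for the assembly and related factors 0.28 over 5. Complex III was lower in PWK-Xi under both other scalings too, at -0.23 with equal totals and -0.58 when centred. The core of complex I, complex II and the accessory subunits changed sign under 1 of these scalings, and complex V, over 13 genes with Atp5c1, lay at 0.05 as deposited, 0.20 with equal totals and -0.15 when centred.

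**Figure D2:**
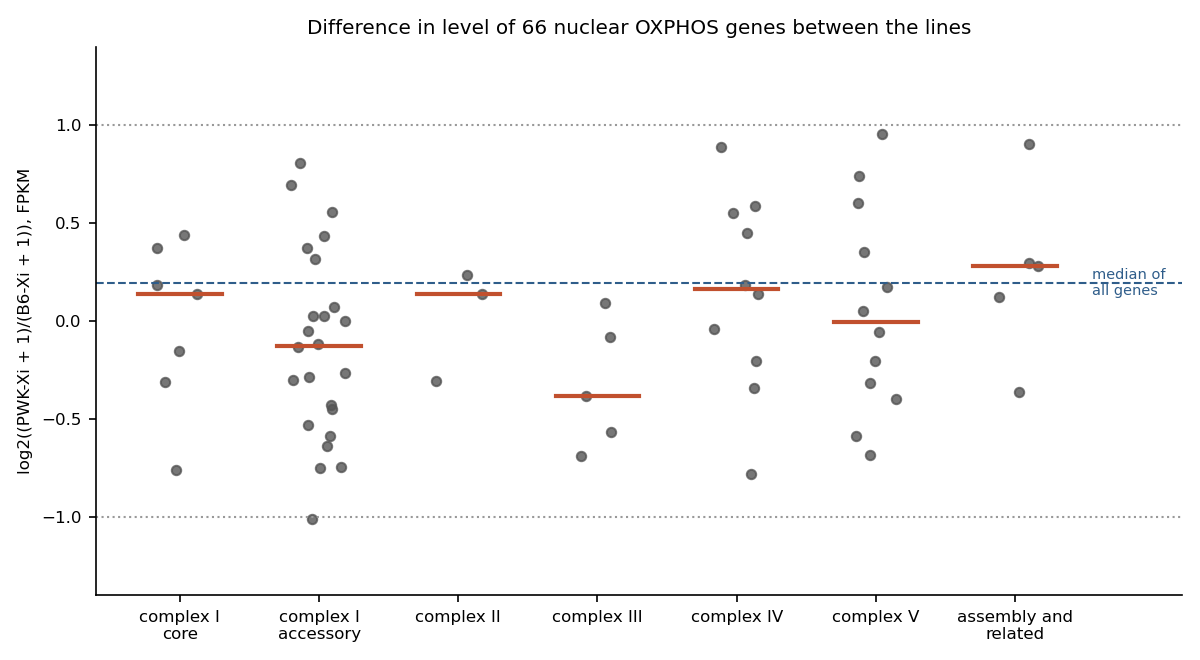
log2((PWK-Xi + 1)/(B6-Xi + 1)) of FPKM for the 66 members above 0 in both lines and at 5 FPKM or more in a line, 1 point per gene, with the median of each class as a solid bar. The dashed line is the median of all genes (0.19) and the dotted lines mark a 2-fold difference, which only Ndufv3 passes, at -1.01.

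Complex I. Ndufv3, a small accessory subunit of the NADH-oxidising arm, had 109.4 FPKM in PWK-Xi and 221.7 FPKM in B6-Xi, 2.03-fold lower in PWK-Xi. With equal totals this difference fell short of 2-fold. Its B6 share was 51.5% in PWK-Xi and 47.2% in B6-Xi, so both alleles were lower in PWK-Xi. By the mean of the lines, the most abundant accessory subunits were Ndufa2, with 643 FPKM in PWK-Xi and 517 FPKM in B6-Xi, Ndufa3, with 337.5 and 332 FPKM, and Ndufa5, with 239 and 326 FPKM. In the core, Ndufs8 and Ndufs7, which hold iron-sulphur clusters of the arm that leads to ubiquinone, had 126 and 125 FPKM in PWK-Xi and 111 and 91.7 FPKM in B6-Xi. Ndufs1, the largest nuclear core subunit, was the lowest at 18.1 FPKM in PWK-Xi and 13.7 FPKM in B6-Xi. The subunits of 1 complex thus spanned a 6.97-fold range in the core in PWK-Xi and an 8.06-fold range in B6-Xi, wider than the difference of any of them between the lines. Ndufv1, which binds NADH, differed most in the core, with 39.9 FPKM in PWK-Xi and 68.5 FPKM in B6-Xi (1.71-fold lower in PWK-Xi).

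The assembly factors of complex I were led by Ndufaf2, with 50.3 FPKM in PWK-Xi and 40.7 FPKM in B6-Xi, and Ndufaf3, with 15.8 and 20.6 FPKM. Ndufaf6, Ndufaf4 and Ndufaf5 lay between 3.42 and 9.45 FPKM in both lines. Atp5sl, listed as Dmac2 in RefSeq and named for complex I assembly, had 5.79 FPKM in PWK-Xi and 2.63 FPKM in B6-Xi.

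Complex II and complex III. Sdhb, the iron-sulphur subunit of succinate dehydrogenase, had 155.6 FPKM in PWK-Xi and 132 FPKM in B6-Xi, and the membrane anchor Sdhc 119.96 and 108.9 FPKM. Sdha, the flavoprotein, was lower than both in each line, with 25.02 and 31.1 FPKM. In complex III the small subunits Uqcrq (406 FPKM in PWK-Xi, 430.4 FPKM in B6-Xi), Uqcrb (369 and 347 FPKM) and Uqcr10 (289 and 468 FPKM) were the most abundant by that mean. Uqcrfs1, the Rieske iron-sulphur protein, had 61.9 FPKM in PWK-Xi and 92.0 FPKM in B6-Xi, and the core protein gene Uqcrc1 had 73.9 and 96.6 FPKM. Of the 5, only Uqcrb was higher in PWK-Xi on the deposited scale, and it was 1.07-fold higher.

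Complex IV. Cox4i1, the ubiquitous form of subunit 4, was the most abundant member of all, with 1809 FPKM in PWK-Xi and 977 FPKM in B6-Xi. It was 1.85-fold higher in PWK-Xi, and its alleles differed in opposite directions. The B6 allele had 1569 FPKM in PWK-Xi and 458 FPKM in B6-Xi, while the PWK allele had 240.3 FPKM in PWK-Xi and 519 FPKM in B6-Xi. By the mean of the lines the next were Cox6c (532 and 675 FPKM), Cox6a1 (683 and 501 FPKM) and Ndufa4 (500.4 and 578 FPKM), first assigned to complex I and now regarded as a subunit of complex IV. Cox4i1 also carried the pooled allelic balance of the complex. Over all its FPKM the B6 share was 64.2% in PWK-Xi and 48.5% in B6-Xi, and without Cox4i1 it was 51.6% and 49.0%.

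Several subunits of complex IV have tissue forms. The ubiquitous member of a pair was the abundant one wherever it was measured. Cox4i2, a form known from lung, had 0.696 FPKM in PWK-Xi and was at 0 in B6-Xi. Cox6a2, the heart and skeletal muscle form, had 2.78 and 0.377 FPKM against 683 and 501 FPKM of Cox6a1. Cox7a2 had 349 and 238 FPKM while Cox7a1, its muscle form, was listed at 0, and Cox7a2l, a supercomplex assembly factor, had 56.4 FPKM in PWK-Xi and 97.7 FPKM in B6-Xi. Cox7b2 had 0.0429 FPKM in PWK-Xi and was at 0 in B6-Xi, beside 177 and 161 FPKM of Cox7b. Cox6b2, a testis form, had 8.68 FPKM in PWK-Xi, 70.5% from B6, and was at 0 in B6-Xi. Its ubiquitous partner Cox6b1 was listed at 0 in both lines, as were all of Cox8a, Cox8b and Cox8c, so for these the forms could not be compared. Ndufa4l2, a hypoxia-induced relative of Ndufa4, had 5.84 FPKM in PWK-Xi, all from B6, and was at 0 in B6-Xi. It overlaps Shmt2 in the RefSeq annotation, and with no strand stated the reads of overlapping genes could not be told apart. The same holds for 15 members that overlap another protein-coding gene, among them Cox4i2 (Bcl2l1), Cox6a2 (Itgad), Atp5j (Gabpa), Atp5a1 (Haus1), Uqcrq (Gdf9), Ndufa1 (Rnf113a1) and Ndufb11 (Rbm10).

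Complex V. Atp5j2, the membrane subunit f, had 746 FPKM in PWK-Xi and 447 FPKM in B6-Xi. Atp5h of the peripheral stalk had 335.5 and 539.6 FPKM, and Atp5b, the catalytic beta subunit, had 363 and 418 FPKM. These were the 3 most abundant of the complex by the mean of the lines. The largest difference in complex V among genes above 0 in both lines was that of Atp5j, coupling factor 6, with 400.2 FPKM in PWK-Xi and 206 FPKM in B6-Xi, 1.94-fold higher in PWK-Xi. Atp5o, the subunit that ties the catalytic head to the peripheral stalk, had 395 and 260 FPKM. Both lie on chromosome 16. Atp5c1, the gamma subunit that turns inside the head, had 151 FPKM in PWK-Xi and was listed at 0 in B6-Xi. Its partners in the catalytic part were present there, with 114.5 FPKM of Atp5a1 (alpha) and 217 FPKM of Atp5d (delta), so the 0 of a subunit that the enzyme needs is given as listed and not read as absence. RefSeq names a pseudogene after Atp5c1.

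Atp5g1, Atp5g2 and Atp5g3 are 3 genes on chromosomes 11, 15 and 2 whose products differ in the mitochondrial targeting part and mature to the same c subunit of the proton-driven ring. All 3 were expressed, at nearly equal levels. Atp5g1 had 192 FPKM in PWK-Xi and 254 FPKM in B6-Xi, Atp5g2 had 225 and 217 FPKM, and Atp5g3 had 232 and 241 FPKM. Their allelic shares differed widely. The B6 share of Atp5g1 was 100% in both lines, with the PWK allele listed at 0. That of Atp5g2 was 23.3% in PWK-Xi and 20.9% in B6-Xi, and that of Atp5g3 was 58.1% and 59.7%. Summed over the 3 genes, the B6 share was 58.5% in PWK-Xi and 62.2% in B6-Xi, so the family as a whole showed neither extreme.

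The regions before the start sites of these 3 genes are shown because the genes make the same subunit with very different allelic shares. With them stand those of Atp5e, Uqcrc1 and Ndufs5, whose shares lay more than 20 percentage points from those of their neighbours in a line, as described below. Each is the 250 bases before the start listed in RefSeq, from the reference genome GRCm38.p6, which is a B6 genome and a later build than the mm9 named for the files. The PWK sequence was not used here. In lower case with matches to the motif of the factor NRF1 (GCGCA, any base, GCGC) in capitals, 5′ to 3′ on the strand of the gene, they are given for chr11:96075632-96075881 (minus strand), chr15:102671048-102671297 (minus), chr2:73911327-73911576 (minus), chr2:174464102-174464351 (minus), chr9:108936398-108936647 (plus) and chr4:123718187-123718436 (minus).
Atp5g1: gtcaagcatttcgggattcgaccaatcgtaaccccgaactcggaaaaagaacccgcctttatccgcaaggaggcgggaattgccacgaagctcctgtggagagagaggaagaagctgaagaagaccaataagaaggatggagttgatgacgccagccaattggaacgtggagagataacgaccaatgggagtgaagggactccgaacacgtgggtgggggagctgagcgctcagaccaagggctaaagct
Atp5g2: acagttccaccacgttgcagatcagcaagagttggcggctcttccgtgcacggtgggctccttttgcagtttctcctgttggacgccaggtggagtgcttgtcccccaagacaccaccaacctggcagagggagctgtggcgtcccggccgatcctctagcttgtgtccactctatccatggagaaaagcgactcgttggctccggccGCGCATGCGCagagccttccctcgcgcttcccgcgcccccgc
Atp5g3: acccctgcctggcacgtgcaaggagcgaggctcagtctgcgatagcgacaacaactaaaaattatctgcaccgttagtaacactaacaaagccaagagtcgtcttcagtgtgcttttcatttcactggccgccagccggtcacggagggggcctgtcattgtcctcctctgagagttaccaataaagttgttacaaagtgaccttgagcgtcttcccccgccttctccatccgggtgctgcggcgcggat
Atp5e: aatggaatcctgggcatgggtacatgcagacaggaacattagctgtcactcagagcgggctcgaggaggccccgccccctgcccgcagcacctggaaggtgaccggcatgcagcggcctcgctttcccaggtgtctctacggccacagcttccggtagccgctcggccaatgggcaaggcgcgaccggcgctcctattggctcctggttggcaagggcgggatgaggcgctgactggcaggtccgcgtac
Uqcrc1: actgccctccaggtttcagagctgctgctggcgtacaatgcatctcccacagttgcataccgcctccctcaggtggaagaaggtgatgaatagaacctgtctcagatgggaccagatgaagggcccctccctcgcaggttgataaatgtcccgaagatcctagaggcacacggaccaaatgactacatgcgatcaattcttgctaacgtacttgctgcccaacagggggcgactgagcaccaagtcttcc
Ndufs5: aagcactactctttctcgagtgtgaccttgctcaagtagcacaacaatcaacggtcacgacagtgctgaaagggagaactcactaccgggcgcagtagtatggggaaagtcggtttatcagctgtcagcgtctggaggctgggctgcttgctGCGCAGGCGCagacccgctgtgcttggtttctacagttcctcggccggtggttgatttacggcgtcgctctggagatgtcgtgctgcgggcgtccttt

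NRF1 and GABP are transcription factors known to bind promoters of respiratory genes. The motifs searched on both strands were GCGCA, any base, GCGC for NRF1 and CCGGAAGT for GABP, in the 300 bases from 250 before to 50 after the start. The match in Atp5g2 reads the same on both strands, so it was found on each, and the GABP letters were in none of the 6 windows. Promoters were found for 76 of the 92 members. The NRF1 letters stood in 18 of them (23.7%), against 6.6% of 17492 promoters of protein-coding genes, and the GABP letters in 5 (6.58%), against 5.29%. NRF1 matches were in 0 of 5 promoters of the core of complex I, 7 of 27 of its accessory subunits, 2 of 3 of complex II, 1 of 5 of complex III, 1 of 14 of complex IV, 5 of 14 of complex V and 2 of 8 of the assembly and related factors. Atp5g2 and Ndufs5 had theirs before the start, Atp5g3 and Uqcrc1 after it, outside the letters shown, and Atp5g1 and Atp5e had none in the window. A match is a stretch of letters and not a site of binding, and a bearing on the allelic shares was not tested.

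By the median share, the alleles of this dispersed gene set were used about evenly, while those of single members were not. Pooled over the FPKM of all 92 members, X-linked ones included, the B6 share was 58.5% in PWK-Xi and 48.6% in B6-Xi. Without Cox4i1 it was 54.6% and 48.8%. Over the 61 autosomal members at 5 FPKM or more in each line, the median B6 share was 54.3% in PWK-Xi and 51.4% in B6-Xi, against 52.4% and 50% over all 3830 such autosomal genes. In PWK-Xi 14 members (23.0%) had 1 allele at 2 or more times the other, against 20.5% of all these genes. It was the B6 allele in 12 (14.1% of all genes) and the PWK allele in 2 (6.37%). In B6-Xi there were 17 such members (27.9%), against 33.6%, with the B6 allele higher in 9 (15.8%) and the PWK allele in 8 (17.8%). Shares of 90% or more, or 10% or less, were those of Atp5g1 in PWK-Xi (1.7% of all genes) and of Atp5g1 and Ndufs5 in B6-Xi (8.96%). By complex the medians were 54.6% in PWK-Xi and 54.4% in B6-Xi for the core of complex I (7 genes), and 53.2% and 48.6% for its accessory subunits (22 genes). They were 55.5% and 47.6% for complex II (3 genes) and 62.3% and 42.9% for complex III (5 genes). For complex IV they were 50.0% and 52.6% (9 genes), and for complex V 58.8% and 55.0% (12 genes). Uqcr10 and Uqcrq of complex III lie on chromosome 11, described below. Many shares in B6-Xi were plain ratios of small whole numbers. With a divisor of 10 or less and a tolerance of 0.001 points, such ratios made up 1.64% of the members and 4.15% of all these genes in PWK-Xi, and 11.5% and 28.4% in B6-Xi.

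Members stood near the median share of their chromosome more often than all genes did in both libraries, a difference that was not tested. The members were also more abundant. Of 64 members at 5 FPKM or more in each line, 61 had 20 FPKM or more, against 1338 of 3960 genes. No comparison of shares with all genes, here, above or below, was matched for level, so these differences cannot be read as a trait of the members. In PWK-Xi 48 of 61 (78.7%) had a B6 share within 10 points of the median of the other genes of their chromosome, against 72.1% of all genes, and in B6-Xi 42 (68.9%) did, against 56%. The exceptions, 13 in PWK-Xi and 19 in B6-Xi, include Atp5g1 and Atp5g2 in both lines, and Ndufs8 (-23.6 points) and Ndufb8 (-20.5 points) in B6-Xi. On chromosome 1, where members of 3 complexes lie, the median share is 70.2% in PWK-Xi and 51.4% in B6-Xi. Near these medians, Cox5b, Ndufa10, Ndufb3, Ndufs1 and Sdhc had B6 shares of 65.7% to 73.0% in PWK-Xi and of 44.7% to 56.5% in B6-Xi. Their B6 alleles had a median log2 difference of 0.65 (0.57 to 1.23) and their PWK alleles of -0.44 (-0.62 to 0.06). For the 234 genes of the chromosome outside the set these medians were 0.88 and -0.15. Cox5b, a peripheral subunit of complex IV, is an example, with 266.5 FPKM from B6 and 98.7 FPKM from PWK in PWK-Xi, and with 169 and 152.5 FPKM in B6-Xi. Its total differed less, with 365 FPKM in PWK-Xi and 321 FPKM in B6-Xi.

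On chromosome 5, where the median share is 36.5% in PWK-Xi and 51.0% in B6-Xi, the members leaned the other way. Atp5j2 had B6 shares of 33.5% in PWK-Xi and 54.6% in B6-Xi, and Cox6a1 of 34.4% and 42.7%. Their B6 alleles hardly differed between the lines, at 249.9 and 235 FPKM in PWK-Xi against 244 and 214 FPKM in B6-Xi, while their PWK alleles had 496 and 448 FPKM in PWK-Xi against 203 and 287 FPKM in B6-Xi. On chromosome 16 the 3 members Atp5j, Atp5o and Ndufb4 leaned to PWK in both lines, at 32.6% to 44.02% in PWK-Xi and 25% to 32.2% in B6-Xi, beside medians of 41.1% and 33.33%. Chromosome 11 held, beside Atp5g1, Atp5h, Uqcr10 and Uqcrq, with shares of 50.3%, 52.2% and 62.3% in PWK-Xi and of 35.9%, 37.3% and 40.2% in B6-Xi, where the median is 40.8%. The PWK alleles of these 3 were lower in PWK-Xi, for example 167 FPKM of Atp5h against 346 FPKM in B6-Xi. No member at 5 FPKM or more lay on chromosome 12, where the median share is 52.5% in PWK-Xi and 0% in B6-Xi. Atp5s, a coupling factor gene there, had 3.32 FPKM with a B6 share of 49.2% in PWK-Xi, and 1.39 FPKM with 0% in B6-Xi.

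**Figure D3:**
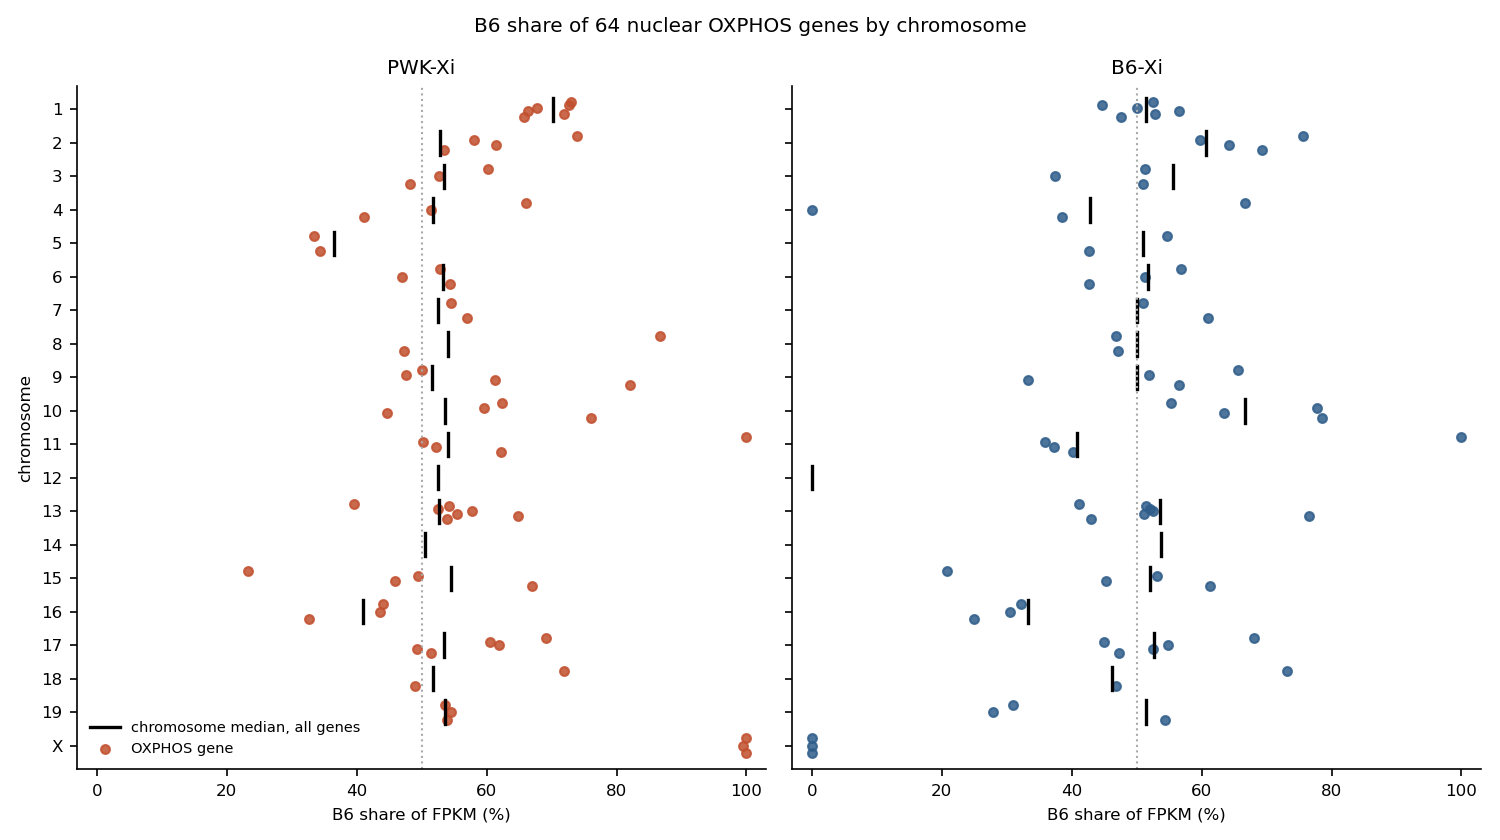
B6 share in percent of the 64 members at 5 FPKM or more in each line, by chromosome, in PWK-Xi (left) and B6-Xi (right), with the median of all genes of each autosome as a black bar and 50% as a dotted line. The members of chromosome 1 sit at 65.7% to 73.0% in PWK-Xi and at 44.7% to 56.5% in B6-Xi, and the 3 members on the X sit at opposite ends in the lines.

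Between the lines 10 of 61 members (16.4%) differed by at least 20 points in B6 share, against 26.8% of all genes. The share was higher in PWK-Xi for 9 of them (17.7% of all genes) and lower for Atp5j2 alone (9.11%). Cox5b, Ndufa10, Uqcrq, Ndufs5 and Atp5j2 lie on chromosomes whose median share lies more than 5 points from the autosomal median in a line. Cox4i1, Uqcrc1, Ndufaf3, Ndufb8 and Ndufs8 do not. Ndufs8 had 54.6% in PWK-Xi and 27.8% in B6-Xi, and Ndufb8, also on chromosome 19, had 53.6% and 30.9%. The third measured member of that chromosome, Ndufv1, had 53.9% and 54.4%. All 10 differed by less than 2-fold in total level.

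Shares were then set against the 10 nearest measured genes, 5 on each side. Fewer were available near chromosome ends, for example 6 for Ndufa3 and 7 for Ndufs4. In PWK-Xi 50 of 61 members (82.0%) lay within 10 points of the median of their neighbours, against 69.4% of all genes, and in B6-Xi 39 (63.9%) did, against 56.5%. More than 20 points away lay 6 members in PWK-Xi (9.69% of all genes) and 5 in B6-Xi (17.6%). Atp5g1, Atp5g2 and Atp5a1 were in both groups. Around Atp5g1 the neighbours had a median of 57.5% in PWK-Xi and 43.6% in B6-Xi, and none of them exceeded 85.3% or 70.8%. Around Atp5g2 these medians were 52.4% and 51.9%. Atp5a1, the alpha subunit, had 72.0% in PWK-Xi and 73.2% in B6-Xi beside neighbours at 51.0% and 49.0%, and Atp5e, the epsilon subunit, had 73.9% and 75.7% beside 52.7% and 60.2%.

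In all, 7 of 61 members (11.5%) had the same allele at 2 or more times the other in both lines, against 7.18% of all genes. Beside Atp5a1, Atp5e, Atp5g1 and Atp5g2 these were Ndufs7 (76.1% in PWK-Xi and 78.6% in B6-Xi), Cox7a2l (69.2% and 68.1%) and Ndufb4 (32.6% and 25%). Ndufs7, Ndufb4 and Atp5e lie on chromosomes that lean the same way in B6-Xi, with medians of 66.67%, 33.33% and 60.7% there.

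Other departures passed 20 points in 1 line only, at times with a smaller one of the same sign in the other. Cox4i1 had a B6 share of 86.7% in PWK-Xi, 32.3 points above its neighbours, and 46.8% in B6-Xi, 1.07 points above them. Uqcrc1 had 82.0% in PWK-Xi beside neighbours at 51.4%, and 56.5% in B6-Xi beside 40.1%. Uqcrb stood 13.3 points above its neighbours in PWK-Xi and 20.2 points above in B6-Xi, at 64.8% and 76.5%. The reverse case was Ndufs5, an accessory subunit of complex I, with 51.4% of 159.5 FPKM from B6 in PWK-Xi and 0% of 197 FPKM in B6-Xi. Its neighbours on chromosome 4 had a median of 47.3% in B6-Xi, from 25.6% to 88.9%. With the B6 allele listed at 0, the total was not lower in B6-Xi, and the PWK allele had 77.5 FPKM in PWK-Xi and 197 FPKM in B6-Xi. RefSeq names a pseudogene after Ndufs5, as it does for 12 members in all, and reads of near-identical copies could not be separated here.

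**Figure D4:**
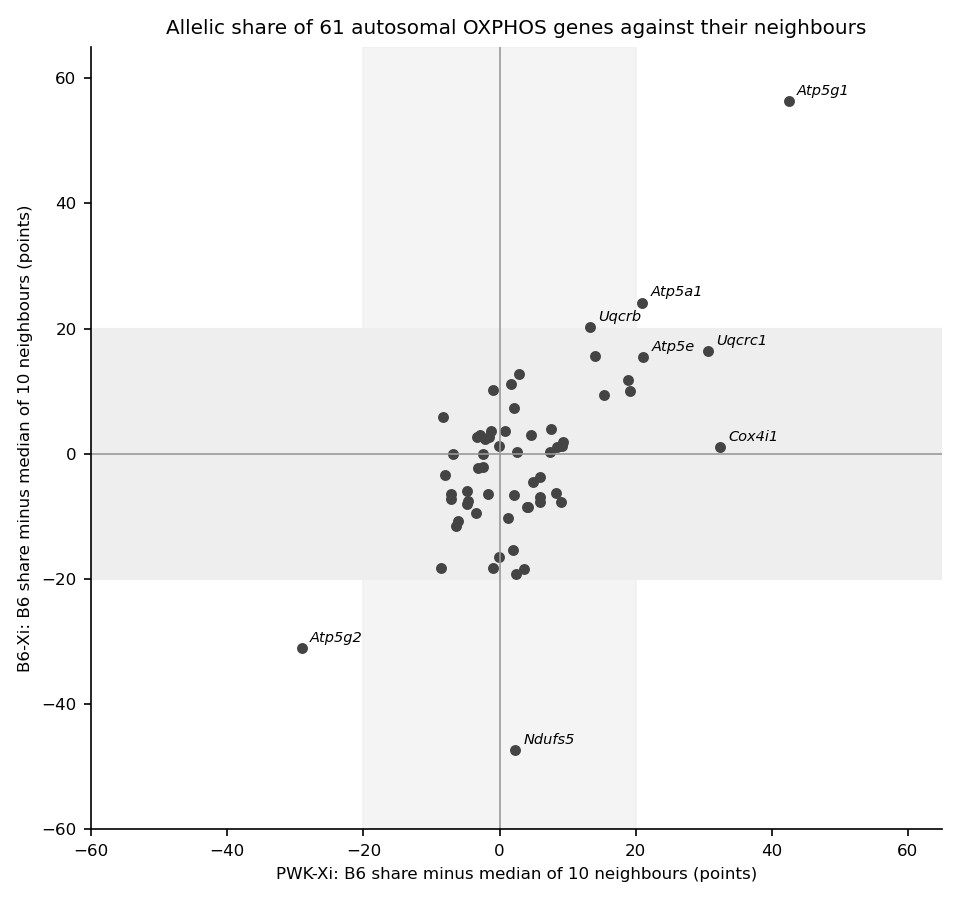
B6 share of each of 61 autosomal members minus the median share of its 10 nearest measured genes, in percentage points. Fewer genes were used near chromosome ends. PWK-Xi is horizontal and B6-Xi vertical, the band of 20 points either way is shaded and the members beyond it are named. Atp5g1 (42.5 and 56.4 points) and Atp5g2 (-29.1 and -31.1) depart in both lines, Cox4i1 and Uqcrc1 mainly in PWK-Xi and Ndufs5 in B6-Xi.

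On the X lie Ndufa1 and Ndufb11, membrane-arm subunits of complex I, and Cox7b of complex IV. All 3 came almost wholly from the active X in both lines. The Xi allele of Cox7b was at 0 in both, with 177 FPKM from the active B6 copy in PWK-Xi and 161 FPKM from the active PWK copy in B6-Xi. Ndufa1 had 0.840 FPKM from the Xi (0.476%) and 175.5 FPKM from the active X in PWK-Xi, and 0 and 100.2 FPKM in B6-Xi. Ndufb11 had 0.0784 FPKM from the Xi (0.0868%) and 90.2 FPKM from the active X in PWK-Xi, and 0 and 136.4 FPKM in B6-Xi. Of the 127 genes on the X at 5 FPKM or more in each line, the Xi allele was at 0 for 95 in PWK-Xi and for 117 in B6-Xi, and it gave under 1% of the total for 118 in PWK-Xi. In level the 3 stood among their autosomal partners. Their FPKM was 1.76-fold higher in PWK-Xi for Ndufa1, 1.10-fold higher for Cox7b and 1.51-fold lower for Ndufb11, so the active copies of the 2 strains gave no common direction.

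**Figure D5:**
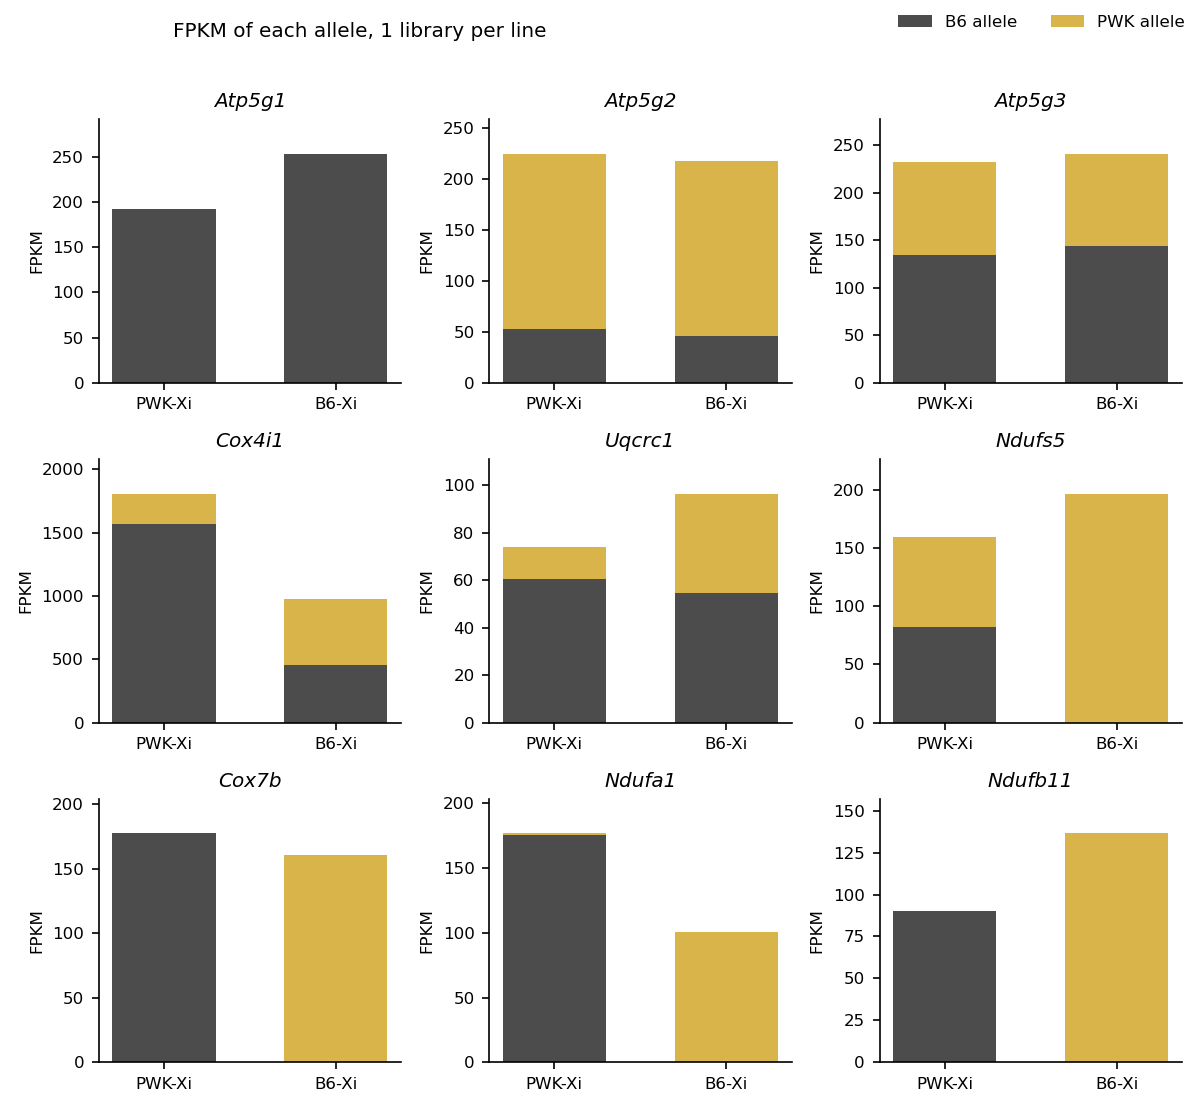
FPKM of the B6 allele (dark) and the PWK allele (yellow), stacked, for 9 members in PWK-Xi (left bar) and B6-Xi (right bar), on linear axes that start at 0 and differ between panels. Atp5g1 is B6 in both lines and Atp5g2 mostly PWK, Cox4i1 and Uqcrc1 have a small PWK part in PWK-Xi, Ndufs5 has no B6 part in B6-Xi, and the X-linked Cox7b, Ndufa1 and Ndufb11 switch allele with the Xi.

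Genes that serve these complexes but fall outside the symbols were read from lists. The list of 38 assembly factors also holds Usmg5 and 2010107E04Rik, which are small proteins of the ATP synthase itself. Of the 38, 23 had at least 5 FPKM in a line and 22 of these were above 0 in both. Of the 22, 3 were 2-fold or more higher in PWK-Xi (14.1% of all genes) and 1 was lower (5.95%). Among the 3 were Cox16 (13.3 FPKM in PWK-Xi and 5.57 FPKM in B6-Xi), a factor of complex IV, and 2010107E04Rik (449.8 and 208 FPKM), both on chromosome 12. Their B6 shares were 72.1% and 47.6% in PWK-Xi, and 0% for both in B6-Xi. The other was Cox18 (9.56 and 3.20 FPKM), which inserts a complex IV subunit into the membrane. Cox17, a copper chaperone, had 102.8 FPKM in PWK-Xi, all from PWK, and was listed at 0 in B6-Xi. Sdhaf1, an assembly factor of complex II, was 2-fold lower, with 9.49 FPKM in PWK-Xi and 20.5 FPKM in B6-Xi. Usmg5, a small protein of the ATP synthase, was the most abundant, at 508 and 423 FPKM.

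Of 19 genes of electron carriers and feeders, 11 had at least 5 FPKM in a line, all above 0 in both. Of the 11, 0 were 2-fold higher in PWK-Xi (14.1% of all genes) and 1 was lower (5.95%). It was Etfb, a subunit of the electron transfer flavoprotein, with 131.2 FPKM in PWK-Xi and 287 FPKM in B6-Xi. Cycs, cytochrome c itself, had 61.9 and 53.5 FPKM, with a B6 share of 33.33% in PWK-Xi and 0% in B6-Xi. In the tricarboxylic acid cycle, which feeds complexes I and II, 13 of 14 genes had at least 5 FPKM in a line and 12 of these were above 0 in both. Of the 12, 2 were 2-fold higher in PWK-Xi (14.1% of all genes) and 0 lower (5.95%). They were Dld (22.5 FPKM in PWK-Xi and 8.38 FPKM in B6-Xi) and Idh3b (66.04 and 30.7 FPKM). Dld lies on chromosome 12, and its B6 share was 54.1% in PWK-Xi and 0% in B6-Xi. Fh1, fumarase, passed through PWK-Xi alone, with 37.5 FPKM, and was listed at 0 in B6-Xi. Mdh2, malate dehydrogenase, was the most abundant, at 288 and 171 FPKM.

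The listed regulators of these genes were low. Of 18, 7 had at least 5 FPKM in a line, of which 6 were above 0 in both. Of the 6, 1 was 2-fold higher in PWK-Xi (14.1% of all genes), Gabpa, the DNA-binding part of GABP, with 7.85 FPKM in PWK-Xi and 2.28 FPKM in B6-Xi. Yy1, on chromosome 12, had 17.7 FPKM in PWK-Xi and was listed at 0 in B6-Xi. Gabpa overlaps Atp5j. Nrf1 itself had 3.19 FPKM in PWK-Xi and 0.738 FPKM in B6-Xi, and the coactivator gene Ppargc1a had 0.524 and 0.432 FPKM. Ssbp1, which binds mitochondrial DNA, was the most abundant at 22.9 and 13.7 FPKM. Of the 7 carrier and channel genes that move adenine nucleotides and phosphate, 5 had at least 5 FPKM in a line. All 5 were above 0 in both lines, 0 were 2-fold higher in PWK-Xi (14.1% of all genes) and 1 was lower (5.95%). It was Vdac1, with 21.6 FPKM in PWK-Xi and 45.0 FPKM in B6-Xi. Slc25a4, an ADP/ATP carrier, had 199 and 389.6 FPKM. Of the 13 subunits encoded in mitochondrial DNA, 0 were listed under the symbols searched (such as mt-Nd1), so they were not analysed here.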

How the data were processed

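The study's 2 libraries of polyadenylated RNA were made by Smart-seq2 per the labels' protocols. The submitters' processing notes name StringTie 2.1.1, HISAT2 2.2.0, Trim Galore 0.6.4 and the build mm9. The authors deposited FPKM per gene and allele, per the file headers. How reads were given to an allele, whether strand was kept and the read depth are not given in the sources used here, so no counting interval was possible.

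FPKM were summed over alleles for levels and divided for shares. Differences used a pseudocount of 1 FPKM and at least 5 FPKM in either line, and shares at least 5 FPKM in both. Chromosome medians used at least 1 FPKM in both. Chromosomes, gene order and overlaps were read from RefSeq and GENCODE annotations of GRCm38, in which all members were found. All calls were computed over all genes. Groups came from the library titles. The members, lists, thresholds and rule for named genes (the most abundant, the 2-fold different, the X-linked and the most skewed members, and tissue isoforms) were chosen with earlier results of these data known. The comparisons with neighbours and at 20 and 100 FPKM were chosen after seeing the data. The scripts ran in Python 3.11.15 with pandas 2.3.3, numpy 2.4.6 and matplotlib 3.10.9, and were tested on simulated data. The values of 1 member are not reported here on their own.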

Additional observations from a re-analysis of the deposited data

Results flagged for a closer look

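Ndufaf3, an assembly factor of complex I on chromosome 9, was the only 1 of 61 autosomal members in which the B6 allele was at least 1.5-fold higher in 1 line and the PWK allele at least 1.5-fold higher in the other. Its B6 share was 61.3% of 15.8 FPKM in PWK-Xi and 33.33% of 20.6 FPKM in B6-Xi, a difference of 28.0 points. The difference was not tested, since each line has 1 library. Its 10 neighbours had medians of 52.4% in PWK-Xi and 41.1% in B6-Xi. The share of Ndufaf3 in B6-Xi, from 6.88 FPKM of B6 and 13.8 FPKM of PWK, is among the plain ratios of small whole numbers described above. The number of reads behind it is not known.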

How the results depend on the processing

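No paired analysis was possible because each line has 1 library. Of 95 alternative values 63 stayed within 0.1 (log2 medians), 2 points (median shares), 0.5 points (shares of FPKM) or 1.5 times (counts) of the main value. Both counts include the Xi shares of the 3 X-linked members in each line, repeated at a minimum of 1 FPKM. These could not change and say nothing about stability. With equal totals the median log2 difference was 0.18 for all members, 0.29 for complex I core, 0.028 for its accessory subunits, 0.29 for complex II, -0.23 for III, 0.47 for IV, 0.20 for V and 0.42 for assembly and related factors. Then 6 members were 2-fold higher (Atp5j, Cox4i1 and Atp5sl joined) and 0 lower, against 22.2% and 4.61% of all genes. Centred on the median of all genes, the medians were in the same order -0.17, -0.055, -0.32, -0.056, -0.58, 0.12, -0.15 and 0.086. With at least 20 FPKM in either line, 1 member (Atp5c1) was 2-fold higher, and medians were -0.0084 for complex I core, 0.16 for IV and -0.033 for the factors (2 genes). With at least 1 FPKM complex IV had 0.45. Among members above 0 in both lines 0 were 2-fold higher and complex IV had 0.16. On the 10 autosomes without a shifted share, the median was -0.14 over 34 members, 1 was 2-fold higher, and of 32 members 6 in PWK-Xi and 7 in B6-Xi had 1 allele at 2 or more times the other, and 5 differed by 20 points. Without the 10 most abundant genes the members held 6.59% of FPKM in PWK-Xi and 6.04% in B6-Xi. Causes were not tested. Depth is unknown, and 1 library per line sets the main limit.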
